A study of Homo sapiens with 12 samples.

Results

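The BCL2 family of apoptosis regulators was followed at the transcript level in ccRCC (clear cell renal cell carcinoma) cells with and without selection for sunitinib resistance. Its 10 genes were chosen by symbol among 45478 genes in the count table, by a rule that uses no measured value, though with earlier results of these data known: the anti-apoptotic guardians BCL2, BCL2L1, MCL1 and BCL2A1, the effectors BAX and BAK1, and the BH3-only genes BID, BCL2L11, BBC3 and PMAIP1. Each symbol matched 1 gene, and all 10 passed the filter on low counts that left 19929 genes for testing. BCL2A1 passed that filter by its counts in parental 786-O or in resistant 786-O, either group being enough, but not by those in parental or resistant A498.

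The proteins of this family decide whether the outer mitochondrial membrane stays closed. The effectors form pores through which cytochrome c escapes and starts the caspase cascade, the guardians bind and restrain them, and the BH3-only proteins sense stress and either occupy the guardians or activate the effectors. The shared piece is the BH3 segment, a short helix that one protein inserts into the groove of another, and the drugs known as BH3 mimetics imitate it. Kidney carcinoma cells commonly rely on BCL2L1 (BCL-XL) and MCL1 for survival.

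mRNA was sequenced from 4 groups of established human cell lines, with 3 libraries in each group. The ccRCC lines 786-O and A498 were studied as parental cells and after selection for resistance to sunitinib, an inhibitor of several receptor tyrosine kinases. Resistant 786-O was grown out at 4 μM of the drug and resistant A498 at 2 μM, during 4 months or >20 passages. All 4 groups were labelled as untreated at sampling. A single resistant line was profiled per parental line. The sources used here do not say whether replicates are separate cultures, and p-values therefore measure only the spread between these libraries. Every group carried its own batch label, so batch and resistance cannot be told apart.

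Total counts per library were 40845091 to 47972092 in parental 786-O, 42643735 to 46888482 in resistant 786-O, 21686648 to 34951585 in parental A498 and 20042519 to 25831163 in resistant A498. Of 9 renal markers, PAX8, PAX2, KRT8, KRT18, VIM, CDH6 and ANGPTL4 exceeded 1 CPM (counts scaled by normalized library size) in all groups. CA9 did so only in parental A498, at 1.29 CPM, and NDUFA4L2 in no group (0.47 to 0.57 CPM). Of 9 T cell markers only IL7R exceeded 1 CPM, and the 9 markers summed to 27.6 to 208 CPM per library. The higher sums were in resistant 786-O, where IL7R averaged 142 CPM and the next highest T cell marker, CD8A, 0.51 CPM. The 9 endothelial and stromal markers summed to 12.3 to 73.1 CPM. Their part in the results was not tested. Fewer cells of a type and less RNA per cell cannot be told apart in such bulk libraries.

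The libraries labelled resistant A498 did not resemble parental A498. Over 19929 genes, the median correlation of log2 CPM between libraries was 0.87 for resistant A498 against parental A498, 0.951 against parental 786-O and 0.982 against resistant 786-O, while parental A498 against parental 786-O gave 0.868. HIF1A, the oxygen-regulated transcription factor subunit, was at 305 ± 11.3 CPM (SD, n = 3) in parental A498 but at 8.79 ± 0.33 in resistant A498, 10.8 ± 0.63 in parental 786-O and 9.19 ± 0.61 in resistant 786-O. The log2 fold change of each member in resistant A498 is therefore given against parental A498 and again against parental 786-O. The latter comparison shares its 3 control libraries with resistant 786-O against parental 786-O. Replicate 2 of resistant 786-O also stood apart: over 10085 genes above 10 CPM, its log2 deviation from the other two replicates had an SD of 0.295, against 0.12 for those between themselves.

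To show what the family shares, the DNA that codes for the BH3 core was located in the members' reading frames. The core was defined as 6 codons for leucine, any 3 residues, glycine or alanine, and aspartate, shown in capitals with the flanking codons in lower case, from the GRCh38 genome, 5′ to 3′ on the coding strand.
BCL2: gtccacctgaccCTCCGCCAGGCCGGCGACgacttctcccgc
BCL2L1: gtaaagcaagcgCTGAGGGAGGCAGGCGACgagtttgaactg
MCL1: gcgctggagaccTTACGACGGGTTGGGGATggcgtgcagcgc
BAX: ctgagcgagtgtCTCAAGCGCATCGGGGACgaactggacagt
BAK1: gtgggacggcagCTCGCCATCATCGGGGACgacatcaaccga
BID: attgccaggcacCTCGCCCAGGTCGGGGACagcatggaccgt
BCL2L11: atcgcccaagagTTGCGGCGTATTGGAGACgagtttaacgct
BBC3: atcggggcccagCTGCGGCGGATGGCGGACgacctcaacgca
PMAIP1: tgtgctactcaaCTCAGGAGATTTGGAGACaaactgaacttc
Each of these 9 members held exactly 1 match, always within a single exon, and BCL2A1 held none. The pattern is short, and 24.6% of 20046 coding genes held it, so a match alone does not mark a BH3 protein. The fifth codon of the core stood for glycine in 8 of the 9 and for alanine in BBC3. The printed stretches of 42 bases, core and flanks together, spanned chr18:63318349-63318390 in BCL2 (minus strand, exon 2 of 3), chr20:31721922-31721963 in BCL2L1 (minus, exon 2 of 3), chr1:150578865-150578906 in MCL1 (minus, exon 1 of 3) and chr19:48955775-48955816 in BAX (plus, exon 3 of 6). They spanned chr6:33575387-33575428 in BAK1 (minus, exon 4 of 6), chr22:17739415-17739456 in BID (minus, exon 4 of 6), chr2:111150091-111150132 in BCL2L11 (plus, exon 3 of 4), chr19:47226579-47226620 in BBC3 (minus, exon 3 of 4) and chr18:59902661-59902702 in PMAIP1 (plus, exon 2 of 2). Every one lies in coding sequence.

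In all 4 groups the guardian transcripts were mainly BCL2L1 and MCL1. Per exon length, in RPKM (CPM divided by exon length in kilobases), BCL2L1 was the highest member at 77.2 ± 1.73 in parental 786-O, 82.4 ± 6.10 in resistant 786-O, 87.4 ± 1.54 in parental A498 and 82.1 ± 0.30 in resistant A498. BCL2L1 made up 66.1%, 71.9%, 76.0% and 67.7% of the summed guardian RPKM in parental 786-O, resistant 786-O, parental A498 and resistant A498, and MCL1 31.7%, 26.8%, 23.4% and 30.7%. BCL2 itself contributed between 0.45% in parental A498 and 1.48% in resistant A498. Its annotated exons span 12612 bases, a length that lowers its RPKM if the longest ends are not transcribed in these cells. The summed guardian level stayed within a narrow span, from 114.6 ± 8.82 RPKM in resistant 786-O to 121 ± 0.68 in resistant A498, and these 2 groups overlapped within their SD.

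Below BCL2L1, the order of BAX and MCL1 differed between groups, and in parental A498 BAK1 (39.98 ± 0.96 RPKM) also lay above MCL1. BAX was ahead of MCL1 in parental 786-O (51.5 ± 2.07 against 37.1 ± 0.93 RPKM), resistant 786-O (37.1 ± 4.23 against 30.8 ± 2.95, with the SDs overlapping) and parental A498 (61.2 ± 1.99 against 26.9 ± 1.17). In resistant A498 the order was turned, with MCL1 at 37.2 ± 0.31 and BAX at 28.9 ± 1.08 RPKM. BAK1, BID and PMAIP1 lay between 15.4 and 39.98 RPKM in every group, and BCL2L11 and BBC3 between 2.29 and 8.42 RPKM. BCL2 and BCL2A1 were the lowest, at 1.79 RPKM or less.

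**Figure D1:**
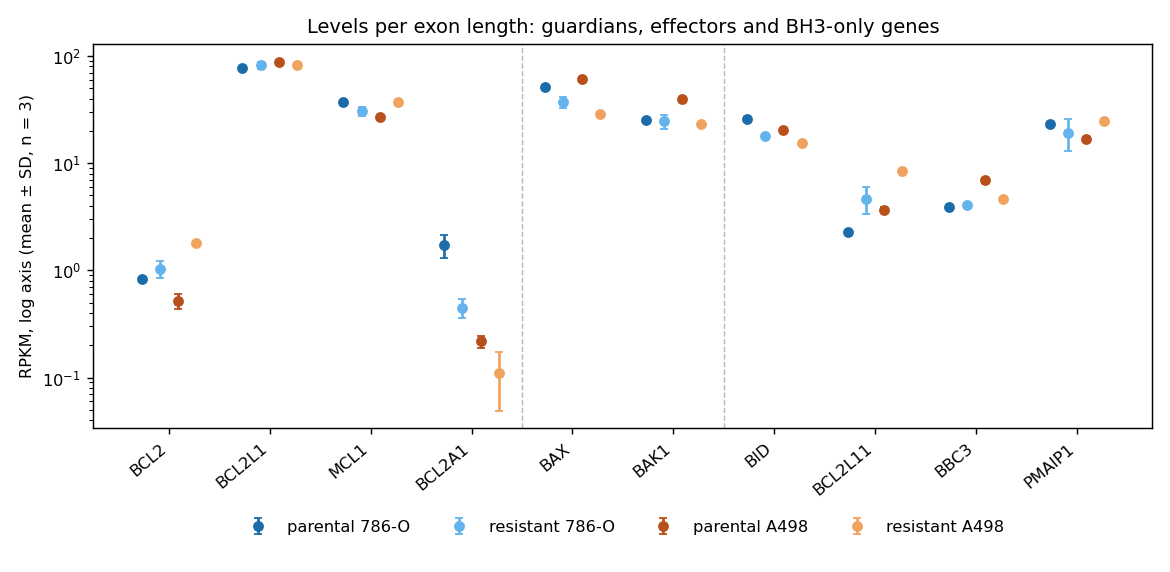
Level of each member per exon length (RPKM, log axis) in the 4 groups, as the mean ± SD of 3 libraries, with dashed lines between guardians, effectors and BH3-only genes. BCL2L1 is the highest member in each group, at 77.2 to 87.4 RPKM, and BCL2A1 falls to 0.11 RPKM in resistant A498.

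In resistant 786-O against parental 786-O, 6 of 10 members passed the threshold (edgeR quasi-likelihood test, Benjamini-Hochberg adjusted p under 0.05), a share close to the 68.5% of all 19929 genes that did. BCL2 and BCL2L11 rose, where 35% of all genes rose, and MCL1, BCL2A1, BAX and BID fell, where 33.5% fell. Only BCL2L11 and BCL2A1 changed more than 2-fold, as did 22% of all genes. BCL2L11 lay close to that limit, at 0.92 to 1.24 (log2) when each library was left out. BCL2A1 had low counts in both groups, 16 to 26 per library in resistant 786-O against 49 to 92 in parental 786-O. The libraries of the 2 groups did not overlap for 5 members, against 68.9% of all genes. The median log2 fold change of the members was -0.15, beside 0.03 for all genes, and their median absolute change was 0.30, beside 0.49. The median of -0.15 ranged from -0.26 to -0.017 when each library was left out, and was 0.018 with at least 10 counts required in every library, which removes BCL2A1.

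In resistant A498 against parental A498, 8 of 10 members passed, beside 72.7% of all genes. BCL2, MCL1, BCL2L11 and PMAIP1 rose, beside 36.3% of all genes, and BAX, BAK1, BID and BBC3 fell, beside 36.4%. BCL2, BCL2L11 and BAX changed more than 2-fold, as did 30.8% of all genes. The libraries did not overlap for any of the 10 members, a property that 78.5% of all genes shared. The median absolute log2 fold change was 0.70, beside 0.61 for all genes, and the median was -0.24. Against parental 786-O the resistant A498 libraries gave 6 calls, beside 63.6% of all genes: BCL2, BCL2L11 and BBC3 were higher (31.6% of all genes) and BCL2A1, BAX and BID lower (32.1%). The first comparison shares its parental 786-O libraries with this one, and the second its resistant A498 libraries.

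**Figure D2:**
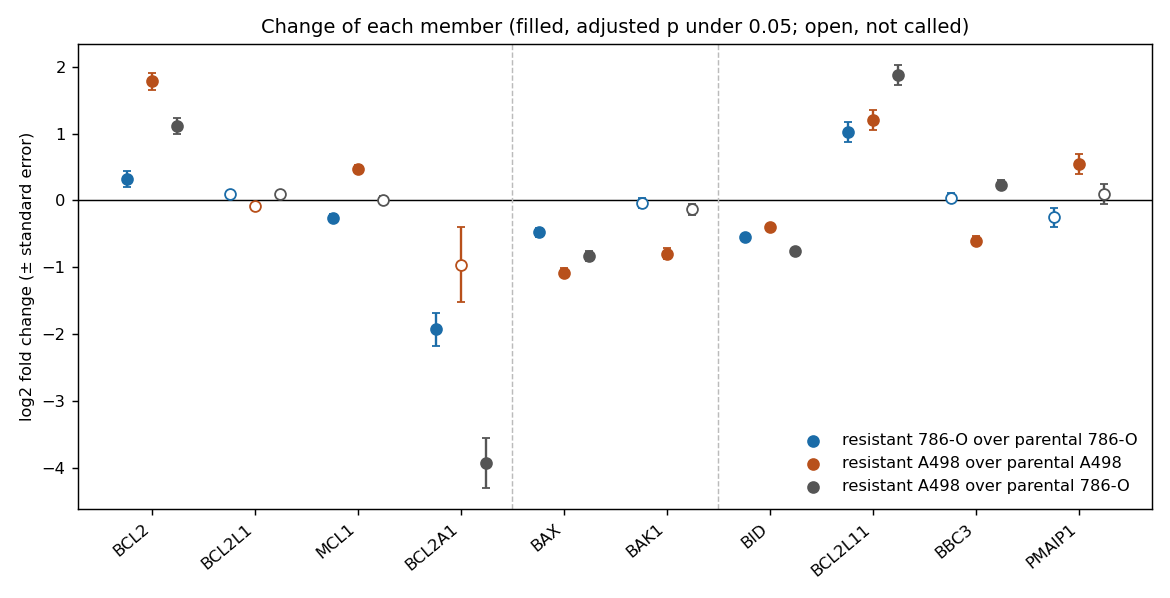
Log2 fold change (± standard error) of the 10 members in resistant 786-O over parental 786-O, resistant A498 over parental A498 and resistant A498 over parental 786-O, with filled points for an adjusted p under 0.05. BCL2 and BCL2L11 are filled above 0 and BAX and BID filled below 0 in each of the 3 comparisons, of which the first and last share the parental 786-O libraries and the last 2 the resistant A498 libraries.

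Under the main settings, the parental lines themselves differed in every member. All 10 were called between parental 786-O and parental A498, where 74.2% of all genes were, 38.2% higher and 36.1% lower in parental 786-O. BCL2A1 was higher in parental 786-O, at 49 to 92 counts per library against 5 to 8 in parental A498. BCL2, MCL1, BID and PMAIP1 were higher in parental 786-O by 0.67, 0.46, 0.36 and 0.45 on the log2 scale. BBC3, BCL2L11, BAK1, BAX and BCL2L1 were higher in parental A498, with log2 differences (parental 786-O minus parental A498) of -0.84, -0.67, -0.67, -0.25 and -0.18. With the trend in GC content and length removed, 7 members were called. BCL2L1 (-0.01, adjusted p = 0.836), BAX (-0.016, adjusted p = 0.824) and PMAIP1 (0.078, adjusted p = 0.628) were not. BCL2L1 was also not called with no filter on low counts, nor PMAIP1 without parental A498 replicate 3.

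BCL2, the founding guardian (ENSG00000171791, chr18:63123346-63320128, minus strand), had counts of 387, 389 and 499 in parental 786-O and 622, 475 and 717 in resistant 786-O. These were 10.2, 10.1 and 11.1 CPM in parental 786-O and 12.7, 10.9 and 15.7 CPM in resistant 786-O, so replicate 2 of resistant 786-O lay inside the range of parental 786-O. The rise was 0.33 ± 0.12 on the log2 scale (adjusted p = 0.024). The call was lost without resistant 786-O replicate 3 (0.20, adjusted p = 0.111), parental 786-O replicate 1 (0.30, adjusted p = 0.073) or parental 786-O replicate 2 (0.30, adjusted p = 0.0791).

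BCL2 was lowest in parental A498, at 6.98, 7.34 and 5.41 CPM, and highest in resistant A498, at 22.6, 22.9 and 22.3 CPM. Resistant A498 lay above every other library. It was higher by 1.78 ± 0.13 (log2) against parental A498 (3.44-fold, adjusted p = 7.90e-09) and 1.11 ± 0.12 against parental 786-O (2.16-fold, adjusted p = 1.11e-06). The order of the groups was parental A498, parental 786-O, resistant 786-O and resistant A498, with an overlap only between parental 786-O and resistant 786-O.

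BCL2L1, which encodes BCL-XL (ENSG00000171552, chr20:31664452-31723989, minus strand), varied little between the groups. It was at 327, 316 and 329.6 CPM in parental 786-O and at 325, 374 and 338 in resistant 786-O. In parental A498 it was at 359, 369 and 372 CPM, and in resistant A498 at 345, 346 and 344. Its log2 fold changes were 0.09 ± 0.05 in resistant 786-O against parental 786-O (adjusted p = 0.102), -0.09 ± 0.05 in resistant A498 against parental A498 (adjusted p = 0.116) and 0.09 ± 0.05 in resistant A498 against parental 786-O (adjusted p = 0.127). None of these was called, but the calls depended on the setting. In resistant 786-O against parental 786-O, BCL2L1 was called higher when only library size was scaled for (0.24, adjusted p = 0.000338), and also with a minimum of 10 counts, thinning to the smallest library, or without resistant 786-O replicate 1 or 3 (0.12 to 0.16). In resistant A498 it was called lower than parental A498 with a minimum of 10 counts (-0.11) or only the compared groups in the fit (-0.096, adjusted p = 0.00883). Against parental 786-O it was called higher under 5 settings, both DESeq2 settings included (0.12 to 0.24). The resistant A498 libraries did not overlap either parental line.

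The exons of BCL2L1 share 1735 of 4197 bases (41.3%) with ABALON, a non-coding RNA on the opposite strand that had 2504 to 5912 counts per library. The authors counted with a strand setting, but among 172 genes lying inside exons of a strongly expressed gene on the opposite strand none had 0 counts, and their median count per base was 166% of the host's. Reads of BCL2L1 and ABALON can therefore not be told apart here. ABALON was called higher in resistant 786-O against parental 786-O (0.35) and in resistant A498 against parental A498 (0.11) and parental 786-O (0.31). The same holds for smaller overlaps of BCL2L11 with MIR4435-2HG (10.8% of its exon bases), BAK1 with GGNBP1 (4.11%), BBC3 with MIR3190 (2.51%) and MCL1 with ADAMTSL4 (0.691%). On the same strand, MCL1 shares 5.27% of its exon bases with ADAMTSL4-AS1 and BBC3 2.39% with MIR3191.

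MCL1, a short-lived guardian that is degraded quickly when translation stops (ENSG00000143384, chr1:150560895-150579738, minus strand), went in opposite directions in the resistant lines. It was at 225, 231 and 236 CPM in parental 786-O and at 182, 213 and 179.9 in resistant 786-O, without overlap, a log2 fold change of -0.27 ± 0.06 (adjusted p = 0.000859). With library size alone this was -0.13 (adjusted p = 0.0568) and no longer called. In parental A498 it was at 172, 171 and 159 CPM and in resistant A498 at 232, 233 and 229, a log2 fold change of 0.47 ± 0.06 (adjusted p = 4.10e-06) that became 0.21 with the trend in GC content and length removed. Resistant A498 lay within the range of parental 786-O, at a log2 fold change of 0.01 ± 0.06 (adjusted p = 0.947).

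BCL2A1, a guardian induced by NF-kB in blood cells (ENSG00000140379, chr15:79960892-79971196, minus strand), was close to absent outside parental 786-O. Its counts were 69, 49 and 92 in parental 786-O, 26, 20 and 16 in resistant 786-O, 8, 5 and 5 in parental A498, and 4, 3 and 1 in resistant A498. Its log2 fold change was -1.93 ± 0.24 in resistant 786-O against parental 786-O (adjusted p = 4.90e-06), without overlap. Resistant A498 against parental 786-O gave -3.93 ± 0.37 (adjusted p = 2.32e-07), on only 1 to 4 counts per resistant A498 library. Resistant A498 against parental A498 rested on 8 counts or fewer per library and was not called (-0.96 ± 0.57, adjusted p = 0.13), although it was with all libraries thinned to the smallest (-1.77, adjusted p = 0.0185).

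**Figure D3:**
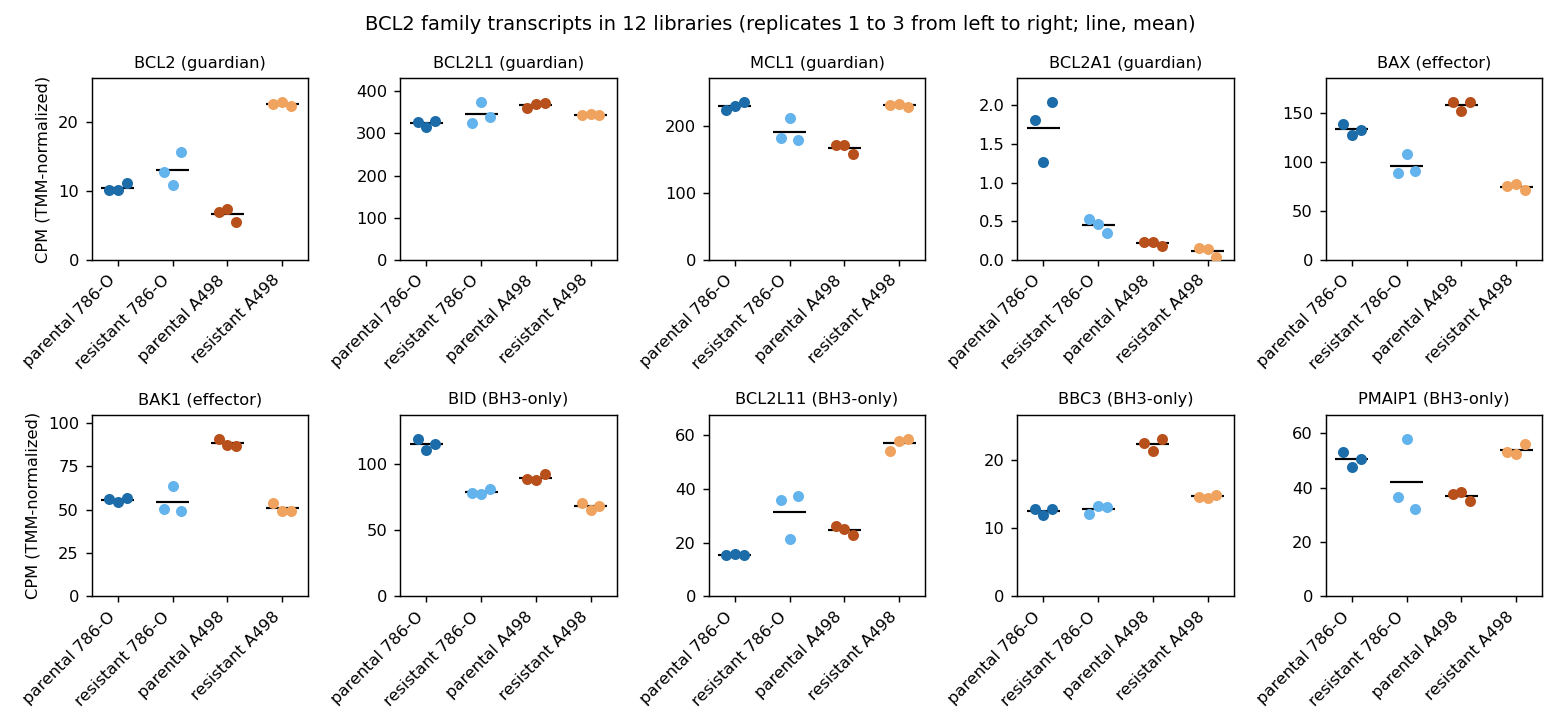
CPM of each member in all 12 libraries, with 1 panel for each gene, points for replicates 1 to 3 from left to right, and a line at the group mean (linear axes from 0). BCL2 and BCL2L11 are highest in resistant A498, BAX is lowest there, and replicate 2 of resistant 786-O departs from its group in BCL2L11 and PMAIP1.

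Of the effectors, BAX (ENSG00000087088, chr19:48954815-48961798, plus strand), which moves from the cytosol to mitochondria when activated, was lower in both resistant lines. It was at 139, 128 and 133 CPM in parental 786-O and at 89.0, 108.6 and 90.4 in resistant 786-O. It was at 161, 152 and 161 CPM in parental A498 and at 75.4, 77.4 and 71.9 in resistant A498, the lowest libraries of all. The 4 groups did not overlap, and their order was resistant A498, resistant 786-O, parental 786-O and parental A498. The log2 fold change was -0.47 ± 0.07 in resistant 786-O (adjusted p = 1.63e-05), -1.08 ± 0.07 in resistant A498 against parental A498 (adjusted p = 1.64e-09) and -0.83 ± 0.07 against parental 786-O (adjusted p = 5.88e-08). With the trend in GC content and length removed, the values were -0.77 in resistant 786-O and -0.85 in resistant A498 against parental A498.

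BAK1, the effector that resides in the mitochondrial membrane (ENSG00000030110, chr6:33572547-33580293, minus strand), set parental A498 apart from the other groups. It was at 90.9, 87.4 and 87.0 CPM in parental A498, and at 53.8, 49.4 and 49.5 in resistant A498, a log2 fold change of -0.80 ± 0.08 (adjusted p = 2.83e-07). In parental 786-O it was at 55.9, 54.4 and 57.0 CPM and in resistant 786-O at 50.5, 63.4 and 49.1. Replicate 2 of resistant 786-O was above all parental 786-O libraries and the other replicates below them, so the log2 fold change was -0.04 ± 0.08 (adjusted p = 0.677) with all libraries and -0.17 (adjusted p = 0.00157) without that replicate. Resistant A498 was not called against parental 786-O (-0.13 ± 0.08, adjusted p = 0.16).

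Among the BH3-only genes, BCL2L11, which encodes BIM (ENSG00000153094, chr2:111119378-111168444, plus strand), had the largest called rise of any member in resistant 786-O against parental 786-O and in resistant A498 against parental 786-O. BIM binds all guardians and can activate BAX and BAK1. It was at 15.4, 15.8 and 15.3 CPM in parental 786-O and at 35.9, 21.4 and 37.2 in resistant 786-O, so that all resistant 786-O libraries were higher, replicate 2 the least. The log2 fold change was 1.03 ± 0.15 (2.04-fold, adjusted p = 1.89e-05), and 1.24 without replicate 2. With the trend in GC content and length removed, it was 0.99.

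BCL2L11 was at 26.1, 25.1 and 22.8 CPM in parental A498 and at 54.0, 57.8 and 58.5 in resistant A498. The rise was 1.201 ± 0.15 (log2) against parental A498 (adjusted p = 2.82e-06) and 1.88 ± 0.15 against parental 786-O (3.67-fold, adjusted p = 4.08e-08). With the trend in GC content and length removed, these rises were 0.95 and 1.75. Resistant A498 lay above every other library, parental 786-O below every other library, and resistant 786-O and parental A498 overlapped because of replicate 2. Per exon length, BCL2L11 stood at 2.97 ± 0.12% of BCL2L1 in parental 786-O, 5.76 ± 1.90% in resistant 786-O, 4.19 ± 0.35% in parental A498 and 10.3 ± 0.44% in resistant A498. Against BCL2 it did not rise in both lines, at 278 ± 17.98%, 447 ± 80.3%, 709 ± 75.8% and 471 ± 21.8% in the same order. MIR4435-2HG, which overlaps its exons, had log2 fold changes of 0.13, 0.16 and 0.31 in the same 3 comparisons.

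BID, which links death receptors to mitochondria after cleavage by caspase-8 (ENSG00000015475, chr22:17734138-17774770, minus strand), was lower in both resistant lines. It was at 119, 111 and 115 CPM in parental 786-O and at 78.2, 77.7 and 80.9 in resistant 786-O, a log2 fold change of -0.54 ± 0.05 (adjusted p = 8.13e-08). In parental A498 it was at 88.7, 88.2 and 92.5 CPM and in resistant A498 at 70.7, 65.1 and 68.5. Its log2 fold change was -0.40 ± 0.05 against parental A498 (adjusted p = 2.35e-06) and -0.76 ± 0.05 against parental 786-O (adjusted p = 3.17e-09). The 4 groups did not overlap, with resistant A498 the lowest and parental 786-O the highest. BID was the only member called in resistant 786-O by the study's own test on raw counts.

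BBC3, the p53 target PUMA (ENSG00000105327, chr19:47220822-47232766, minus strand), did not follow 1 direction. It was at 12.8, 11.98 and 12.8 CPM in parental 786-O and at 12.1, 13.3 and 13.2 in resistant 786-O, with overlap and a log2 fold change of 0.04 ± 0.07 (adjusted p = 0.635). With the trend in GC content and length removed, the same comparison gave -0.64 (adjusted p = 1.58e-06). It was at 22.5, 21.4 and 23.2 CPM in parental A498 and at 14.7, 14.5 and 14.98 in resistant A498. It fell by 0.61 ± 0.07 on the log2 scale against parental A498 (adjusted p = 1.05e-06) and stood 0.23 ± 0.07 higher against parental 786-O (adjusted p = 0.00818), the latter turning to -0.07 with the trend removed.

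PMAIP1, which encodes NOXA, a partner mainly of MCL1 and BCL2A1 (ENSG00000141682, chr18:59899996-59904305, plus strand), depended on a single library in resistant 786-O. It was at 52.9, 47.7 and 50.5 CPM in parental 786-O and at 36.4, 57.9 and 32.3 in resistant 786-O, with replicate 2 above all parental 786-O libraries. This gave a log2 fold change of -0.26 ± 0.15 (adjusted p = 0.137), and -0.55 (adjusted p = 4.56e-11) without replicate 2. In parental A498 it was at 37.5, 38.3 and 34.9 CPM and in resistant A498 at 52.97, 52.4 and 56.1. It rose by 0.55 ± 0.15 (log2) against parental A498 (adjusted p = 0.00504) and 0.32 (adjusted p = 0.0559) with the GC and length trend removed, and it was 0.10 ± 0.15 against parental 786-O (adjusted p = 0.596).

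In resistant 786-O replicate 2, BCL2L11 deviated by -0.77 and PMAIP1 by 0.76 on the log2 scale from the mean of the other replicates. Their size exceeded that of 97.9% and 97.8% of genes above 10 CPM. Without this library 8 members were called, with BAK1 and PMAIP1 added as lower and no direction changed.

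**Figure D4:**
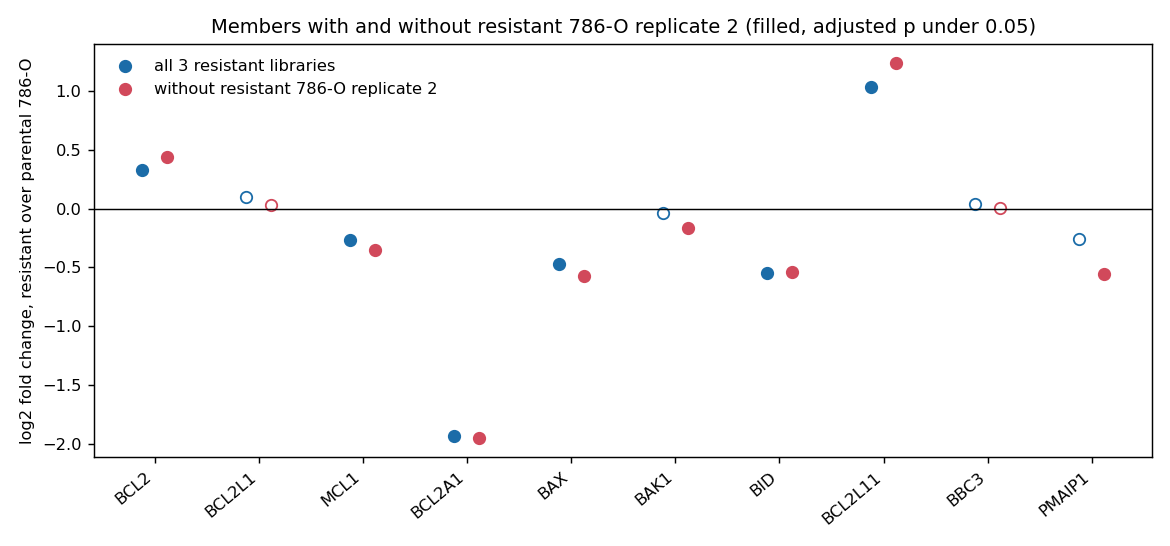
Log2 fold change of each member in resistant 786-O over parental 786-O with all 3 resistant 786-O libraries (blue) and without resistant 786-O replicate 2 (red), with filled points for an adjusted p under 0.05. PMAIP1 moves from -0.26 to -0.55 and BAK1 from -0.04 to -0.17, and both become called.

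The change on resistance differed between the cell lines, as labelled, for 7 of 10 members, beside 68.3% of all genes (33.9% positive and 34.4% negative). The difference of the log2 changes, resistant A498 minus parental A498 less resistant 786-O minus parental 786-O, was positive for BCL2 (1.45 ± 0.18, adjusted p = 3.03e-06), PMAIP1 (0.80 ± 0.21, adjusted p = 0.00374) and MCL1 (0.74 ± 0.08, adjusted p = 1.47e-06). It was negative for BAK1 (-0.76), BBC3 (-0.64), BAX (-0.61) and BCL2L1 (-0.18). It was not called for BCL2L11 (0.17 ± 0.21, adjusted p = 0.477), BID (0.15 ± 0.07, adjusted p = 0.0648) or BCL2A1 (0.97 ± 0.65, adjusted p = 0.209). Parental A498, which enters each of these differences, was the group least like the others by the correlations of log2 CPM given above. Set side by side, resistant A498 and resistant 786-O differed in 7 members, beside 46.1% of all genes (23% in each direction). BCL2L11 (0.85 ± 0.14), BCL2 (0.78 ± 0.12), MCL1 (0.27 ± 0.06) and BBC3 (0.19 ± 0.07) were higher in resistant A498. BCL2A1 (-1.999 ± 0.46), BAX (-0.36 ± 0.07) and BID (-0.21 ± 0.05) were lower. The BBC3 call was lost with no filter on low counts, with only the compared groups in the fit, or with thinning. It was also lost without resistant A498 replicate 1 or 3, or resistant 786-O replicate 1. With the trend in GC content and length removed, BAX was at -0.06 (adjusted p = 0.461), while BBC3 was at 0.57 and still called.

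The promoters of BCL2, BCL2L11, BAX and BID, chosen after their values were seen, are shown as the 250 bases before the RefSeq start site (GRCh38.p14), 5′ to 3′ on the gene's strand, with the searched motifs in capitals. They are chr18:63319770-63320019 (minus) for BCL2, chr2:111120664-111120913 (plus) for BCL2L11, chr19:48954625-48954874 (plus) for BAX and chr22:17773984-17774233 (minus) for the first of 5 BID starts.
BCL2: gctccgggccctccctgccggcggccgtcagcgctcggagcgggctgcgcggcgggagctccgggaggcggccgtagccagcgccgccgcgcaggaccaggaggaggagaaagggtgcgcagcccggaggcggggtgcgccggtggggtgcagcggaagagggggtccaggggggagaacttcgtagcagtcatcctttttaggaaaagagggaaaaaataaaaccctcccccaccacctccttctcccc
BCL2L11: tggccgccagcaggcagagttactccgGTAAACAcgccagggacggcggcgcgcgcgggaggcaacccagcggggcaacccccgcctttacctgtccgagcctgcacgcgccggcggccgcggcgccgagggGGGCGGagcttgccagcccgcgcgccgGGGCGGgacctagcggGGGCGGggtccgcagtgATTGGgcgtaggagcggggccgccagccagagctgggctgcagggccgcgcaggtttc
BAX: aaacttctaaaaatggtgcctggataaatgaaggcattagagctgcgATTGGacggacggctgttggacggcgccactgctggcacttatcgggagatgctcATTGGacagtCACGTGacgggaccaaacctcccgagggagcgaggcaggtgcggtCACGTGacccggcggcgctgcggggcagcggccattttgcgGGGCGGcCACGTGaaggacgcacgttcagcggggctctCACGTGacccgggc
BID: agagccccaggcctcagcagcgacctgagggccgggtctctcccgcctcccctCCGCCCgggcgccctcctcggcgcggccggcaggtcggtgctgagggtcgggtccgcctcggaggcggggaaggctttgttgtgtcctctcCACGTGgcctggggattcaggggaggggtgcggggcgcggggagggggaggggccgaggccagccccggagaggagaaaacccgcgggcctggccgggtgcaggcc
Both strands were searched for the GC box GGGCGG, the TATA box TATAAA, the forkhead element GTAAACA, the E-box CACGTG, the ATF4-CHOP element TGATGNAA, the cyclic AMP response element TGACGTCA, the CCAAT box CCAAT, the AP-1 element TGANTCA, the NF-kB element and the p53 element. BCL2L11 held 1 forkhead element from position -223 to -217, which 2.98% of 35116 promoters hold, beside 3 GC boxes (42.6% of promoters) and 1 CCAAT box (32%). BAX held 4 E-boxes and BID 1, an element in 6.34% of promoters. Only 2 of the 5 BID start windows held it, BBC3 held 1 too, and the BAX promoter also held 2 CCAAT boxes and 1 GC box. The BCL2 window held none of the motifs. GC content was 70% for BCL2, 76.8% for BCL2L11, 62.8% for BAX and 76.4% for BID, against a median of 58% over promoters. These matches describe the letters and were not tested against the expression values.

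For each member, the genes whose log2 CPM followed it most closely over the 12 libraries were listed by Pearson's r, as a description. The 12 points share 4 groups, so a high r mostly reflects group means. The closest named genes were ZCCHC2 for BCL2 (r = 0.985), ERO1A for MCL1 (0.982), SDC3 for BCL2A1 (0.973), DGKI for BAX (0.995) and ST3GAL1 for BAK1 (0.992). They were RFLNB for BID (0.993), NR2F2 for BCL2L11 (0.992), NHERF1 for BBC3 (0.993) and DTNA for PMAIP1 (0.973). BCL2L1 stood alone, with MKS1 closest at 0.939 and no gene at 0.95 or above, whereas BBC3 had 560 such genes and BAK1 432.

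The rest of the apoptosis pathway was described with 72 genes in 6 lists, of which 67 were tested. In resistant 786-O against parental 786-O, 17 rose and 31 fell (71.6% called, beside 68.5% of all genes). In resistant A498 against parental A498, 23 rose and 29 fell (77.6%, beside 72.7%), and against parental 786-O 19 rose and 28 fell (70.1%, beside 63.6%). No share was far from that of all genes. For the counts by list below, 35% of all genes rose and 33.5% fell in resistant 786-O against parental 786-O. In resistant A498 against parental A498, 36.3% of all genes rose and 36.4% fell.

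Of the 13 apoptosome and caspase genes none rose and 5 fell in resistant 786-O. In resistant A498 against parental A498, 4 of these genes rose and 7 fell, led by CASP9, the initiator caspase of the apoptosome (1.35 ± 0.09), and CASP10, a death receptor caspase (-0.73 ± 0.10). Neither was called against parental 786-O (0.18 ± 0.08 and -0.02 ± 0.10).

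Among 11 tested other BCL2 family genes, 4 rose and 5 fell in resistant 786-O. The rises include HRK, at only 0 to 2 counts in parental 786-O and 10 to 14 in resistant 786-O. BCL2L2, the guardian BCL-W, rose by 0.28 ± 0.06, and BCL2L15 fell by 1.499 ± 0.13. In resistant A498 against parental A498, the effector-like BOK rose by 1.40 ± 0.09, from 31.3 to 82.8 CPM, and the BH3-only gene BMF fell by 1.39 ± 0.12. Against parental 786-O, BOK was not called (0.16 ± 0.08, adjusted p = 0.106) and BMF was instead higher in resistant A498 (1.03 ± 0.14). BMF was at 9.94 CPM in parental A498 and at 1.86 to 3.80 CPM in the other groups.

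Of 6 inhibitor of apoptosis genes tested, 4 fell and 1 rose in resistant 786-O, with the largest fall in BIRC5 (survivin), -0.72 ± 0.09. The rise was that of BIRC7, which rested on 0 counts in parental 786-O and 3 to 16 in resistant 786-O. In resistant A498 against parental A498, 3 rose and 1 fell, BIRC2 at 0.24 ± 0.05 and BIRC3 at -0.57 ± 0.14. Against parental 786-O, BIRC2 was instead lower (-0.61 ± 0.05). Death receptor genes were the list with most large changes in resistant A498 against parental A498, where 3 of 12 rose and 8 fell. Of the 12, 6 changed more than 2-fold, beside 30.8% of all genes. Among these 6, TNFRSF10C was near absent, at 0.82 CPM in parental A498 and 0 to 2 counts in resistant A498. TNFSF10, the ligand TRAIL, rose by 3.97 ± 0.06, from 23.3 to 365 CPM, and its receptor TNFRSF10A fell by 1.598 ± 0.15. Against parental 786-O, where TNFSF10 was at 231 CPM, its difference was 0.66 ± 0.05, and that of TNFRSF10A was -0.46 ± 0.15. In that comparison 3 of the 12 were higher and 6 lower, beside 31.6% and 32.1% of all genes. There 1 of the 12, TNF, was called with a change over 2-fold. In resistant 786-O, TRADD, an adaptor of TNF receptor signalling, rose by 0.49 ± 0.08 and TNFRSF1A, a receptor of TNF, fell by 0.94 ± 0.07.

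All 12 tested upstream transcription factors were called in resistant 786-O, 5 higher and 7 lower. TP73, a p53 relative, rose by 1.27 ± 0.11, and FOXO1, a forkhead factor, fell by 0.59 ± 0.10. TP73 was at 0.58 CPM in parental A498 and 6.25 in resistant A498 (3.42 ± 0.17, and 1.03 ± 0.12 against parental 786-O), and DDIT3, the stress factor CHOP, was higher in resistant A498 than in parental 786-O by 1.10 ± 0.09. Of 13 genes for turnover and partners, 3 rose and 7 fell in resistant 786-O. HUWE1, a ubiquitin ligase of MCL1, rose by 0.42 ± 0.11, and YWHAZ, a 14-3-3 protein, fell by 0.97 ± 0.04, from 2102 to 1071 CPM. In resistant A498 against parental A498, MARCHF5, a mitochondrial ubiquitin ligase, rose by 1.00 ± 0.05 and PPP2R1A, a phosphatase subunit, fell by 1.10 ± 0.06. Against parental 786-O, MARCHF5 was not called (0.10 ± 0.05) and PPP2R1A was lower (-0.38 ± 0.06).

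In resistant A498 against parental 786-O, BCL2L15 was lower (-1.16 ± 0.13), as were BIRC3 (-0.82 ± 0.13), FOXO1 (-0.70 ± 0.11) and FBXW7, a ubiquitin ligase of MCL1 (-0.65 ± 0.10). TNF, the ligand of TNFRSF1A, had the most negative difference of the 12 tested death receptor genes (-3.59 ± 0.42). APAF1, the scaffold of the apoptosome (0.20 ± 0.07), BIRC6 (0.24 ± 0.08) and BECN1, an autophagy protein with a BH3 segment (0.54 ± 0.05), were higher.

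**Figure D5:**
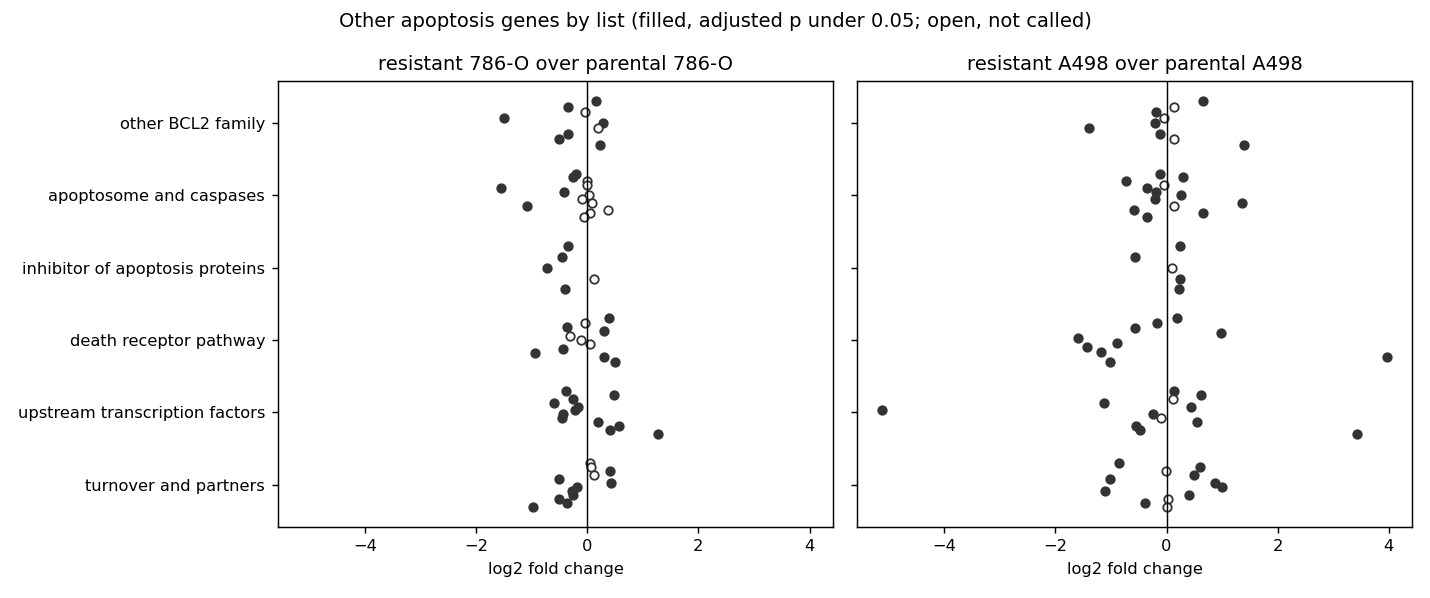
Log2 fold change of the other apoptosis genes that reached a mean of 1 CPM in 1 of the groups compared (62 genes in resistant 786-O over parental 786-O, left, and 61 in resistant A498 over parental A498, right), 1 point per gene, grouped by list and filled for an adjusted p under 0.05. Points lie on both sides of 0 in most lists, with TNFSF10 at 3.97 and HIF1A at -5.11 the farthest on the right panel.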

How the data were processed

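The authors deposited raw counts per gene for 12 libraries, without normalization. According to the paper and the submitters' processing notes, paired reads of stranded mRNA libraries were trimmed with Trimmomatic 0.36.6, aligned to GRCh38 with HISAT2 2.1.0 and counted over GENCODE exons with featureCounts 1.6.3, after base calling with bcl2fastq 2.19.0. Libraries were grouped by their labels.

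edgeR 4.0.16 in R 4.3.3 was applied to the counts. Genes were filtered with filterByExpr, which kept 19929, and normalized by TMM. A quasi-likelihood model with 4 group means was fitted to all 12 libraries, 6 contrasts were tested, and p-values were adjusted over all genes tested (Benjamini-Hochberg, threshold 0.05). Log2 fold changes use a prior count of 0.125, and standard errors come from the quasi-likelihood F statistic. RPKM used union exon lengths of a later GENCODE release on the same assembly. In simulated data for resistant 786-O against parental 786-O, 160 of 200 genes changed 2-fold were recovered among 19303, with 15 false calls. Likeness was Pearson's r of log2 CPM (prior count 2). limma 3.58.1, DESeq2 1.42.0, Python 3.11.15, pandas 2.3.3 and matplotlib 3.10.9 were also used.

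The members and lists were chosen with earlier results of these data known. All members are named, and from each other list the genes with the largest called rise and fall with at least 1 CPM in the higher group, except for a result not reported here. Replicate numbers did not pair the libraries (correlation of deviations -0.184 to 0.0982), and replicates differed by more than sampling noise (chi-square per degree of freedom 1.55 to 44.0). The alternatives were other scaling, filters, tests, thinning, samples in the fit, a GC and length correction, a replicate block, a minimum change, another prior count, resistant A498 set against parental 786-O, and leaving out each library. The study's own test, a two-sample test on raw counts, served as an alternative, because raw counts follow library depth. MCL1 has no promoter entry in the table used.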

Additional observations from a re-analysis of the deposited data

Results flagged for a closer look

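Of 10 members, 7 changed differently on resistance in the A498 and 786-O lines, as labelled, by a test of the difference itself (edgeR quasi-likelihood, Benjamini-Hochberg adjusted), a share close to the 68.3% of all genes called in the same contrast. The differences of log2 changes were 1.45 for BCL2 (adjusted p = 3.03e-06), -0.18 for BCL2L1 (0.0294), 0.74 for MCL1 (1.47e-06), -0.61 for BAX (4.57e-05), -0.76 for BAK1 (2.18e-05), -0.64 for BBC3 (2.39e-05) and 0.80 for PMAIP1 (0.00374). BCL2L1 was no longer called when any 1 of 7 libraries was left out. With the trend in GC content and length removed, BAX was at -0.08 (adjusted p = 0.448) and PMAIP1 at 0.18 (adjusted p = 0.424), while BBC3 and BCL2L1 turned direction and were still called, at 0.27 (adjusted p = 0.027) and 0.16 (adjusted p = 0.0277). All 7 values include the distance between parental A498 and the other groups, in that the resistant A498 libraries correlated at 0.87 with parental A498 and 0.951 with parental 786-O. The part of the labels, the batches and the selection in these differences cannot be told apart.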

How the results depend on the processing

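Member values that kept their direction and side of the threshold were 58 of 60 with DESeq2 size factors, 57 of 60 with its Wald test, 52 of 60 with library size alone, 41 of 60 with the GC and length trend removed, 27 of 60 with a change over 2-fold required and 20 of 50 with the study's own test on raw counts. The cause of the changes below was not tested. The replicate block changed no member call (60 of 60 kept, 6 called in resistant 786-O against parental 786-O), and since same-numbered libraries did not deviate together, the numbers are not treated as pairs.

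Requiring a change over 2-fold left 2 members in resistant 786-O against parental 786-O, 3 in resistant A498 against parental A498, 3 in resistant A498 against parental 786-O, 1 in parental 786-O against parental A498, 1 in resistant A498 against resistant 786-O and 1 for the difference of changes, and 7, 15 and 10 of the other apoptosis genes in the first 3. The study's own test on raw counts called 1, 2 and 5 members in resistant 786-O against parental 786-O, resistant A498 against parental A498 and parental 786-O against parental A498, and 23 and 17 of the other apoptosis genes in the first 2 of these.

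Leaving out each library gave 5 to 8 members called in resistant 786-O against parental 786-O, 8 to 8 in resistant A498 against parental A498, 6 to 6 in resistant A498 against parental 786-O, 9 to 10 in parental 786-O against parental A498, 6 to 8 in resistant A498 against resistant 786-O and 6 to 8 for the difference. The other apoptosis genes called were 44 to 55, 46 to 51 and 46 to 49 in the first 3. Values that crossed 0 ranged from -0.17 to 0.051 for BAK1 in resistant 786-O against parental 786-O, from -0.017 to 0.036 for MCL1 in resistant A498 against parental 786-O, from -0.043 to 0.057 for BCL2L1 and -0.15 to 0.032 for BAK1 in resistant A498 against resistant 786-O, and from -0.033 to 0.32 for the difference in BCL2L11. None of these was called with all libraries.

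Other reversals were as follows (log2). With the GC and length trend removed, resistant 786-O against parental 786-O gave -0.088 for BCL2L1, -0.64 for BBC3 and 0.13 for PMAIP1, resistant A498 against parental A498 gave 0.069 for BCL2L1, and resistant A498 against parental 786-O gave -0.10 for MCL1 and -0.074 for BBC3. The same removal gave 0.17 for BCL2L1 and 0.17 for BAK1 in resistant A498 against resistant 786-O, and 0.16 for BCL2L1, -0.044 for BCL2L11 and 0.27 for BBC3 in the difference. Library size alone gave 0.10 (resistant 786-O against parental 786-O) and 0.019 (resistant A498 against parental 786-O) for BAK1 and 0.00399 for BCL2L1 in resistant A498 against resistant 786-O, where DESeq2 size factors and its Wald test both gave 0.0064. A minimum of 10 counts in every library gave 0.018 for BAK1 in resistant 786-O, and no filter -0.0079 for MCL1 in resistant A498 against parental 786-O. Set against parental 786-O in place of parental A498, resistant A498 gave 0.089 for BCL2L1 and 0.23 for BBC3.

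On raw counts, which follow depth, BAK1 was 0.14 in resistant 786-O against parental 786-O. BCL2L1, MCL1, BBC3 and PMAIP1 were -0.64, -0.73, -0.50 and -0.63 in resistant A498 against parental 786-O. BCL2L1 and BAX were 0.37 and 0.29 in parental 786-O against parental A498. BCL2, MCL1, BCL2L11, BBC3 and PMAIP1 were -0.13, -0.64, -0.082, -0.72 and -0.55 in resistant A498 against resistant 786-O. BCL2A1 had 1 to 8 counts per library in parental A498 and resistant A498.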

Other observations

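A pair of low apoptosis genes, named after their values were seen, lay outside the 1 CPM limit and are given as counts with no fold. HRK, a BH3-only gene known from neurons, had 0 counts in each parental A498 library and 11 to 14 in resistant A498, and 0 to 2 in parental 786-O and 10 to 14 in resistant 786-O. BIRC7, an inhibitor of apoptosis gene, had 0 counts in each parental 786-O library and 3 to 16 in resistant 786-O, and 6 to 12 in parental A498 and 7 to 9 in resistant A498. TNF, the death receptor ligand, was at 4.79 ± 0.46 CPM in parental 786-O and 3.86 ± 1.84 in resistant 786-O, and at 0.17 ± 0.08 in parental A498 and 0.39 ± 0.14 in resistant A498.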
